A study of Gallus gallus with 12 samples.

Results

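GLUL, VIM, FABP7, AQP4 and SOX9, 5 genes of astrocytes and of the tanycytes that line the third ventricle, were followed by bird in the hypothalamus of heat-stressed chickens. They were chosen by name, and each array probe whose accession belongs to one of them was taken, which gave 12 probes (2 for GLUL, 3 for VIM, 3 for FABP7, 2 for AQP4 and 2 for SOX9) of 43603 on the array. Of all 43603 probes, 10185 could be named, for 4814 genes. The 12 arrays were of 1 colour, with 1 array for each of 12 female broilers, aged 56 d when the heat began. The birds were a set of full siblings and of birds that share 1 parent. The HS birds (n = 4) had been kept at 34 °C for 24 h. The TR birds (n = 4) had the same heat and then 24 h of recovery at 25 °C, and the CL birds (n = 4) stayed at 25 °C. All birds were reared at 25 °C before, and no label says which of them were siblings. By the study's account, HS birds were dissected after the heat, and CL and TR birds were collected after a further 24 h. In comparisons with HS, group and time of collection therefore cannot be told apart.

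Astrocytes take up glutamate and potassium from around synapses, and glutamine synthetase, the product of GLUL, turns the glutamate into glutamine that returns to neurons. Tanycytes are elongated, radial glia-like cells that keep vimentin filaments and fatty acid binding protein 7 into adult life and reach from the ventricle into the hypothalamus, where they take part in thyroid hormone and nutrient signalling. AQP4 forms the water channel of astrocyte endfeet on vessels, and SOX9 is a transcription factor that glial cells keep from the progenitor stage on.

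Titles, sources and protocol of the samples name the hypothalamus, whereas other label fields name the spleen, male birds and an MDV infection. Brain markers were present in every bird. GFAP, the filament of mature astrocytes, lay between 16.97 and 18.29 log2 units of signal over the 12 birds, and all 8 oligodendrocyte markers and all 7 neuron markers with a probe were above background on every array. Of 10 lymphoid and erythroid markers with a probe, 7 were also above background on every array, with IKZF1 and the haemoglobins HBBA, HBAD and HBA1 among them, and CD4 was on 4 of 12. Each array had 33505 to 36852 spots above background, at a median spot brightness of 11.8 to 17.3 times the local background, and no spot was saturated. Each group lay on 1 slide of its own, so slide and group cannot be told apart. HS and TR arrays were scanned on the same day and CL arrays on another.

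Every one of the 12 glial probes was above background in every bird, and all were tested. Signals are given as log2 of the quantile-normalized spot intensity. A level depends on how its probe binds, so levels are compared between birds for the same probe, and the mean signal of a probe only serves to choose 1 probe of a gene where a single one was needed. The test was limma, run on the 34930 probes that every array of at least 1 group showed above background. A probe was called differentially expressed (DE) where it passed 3 limits, an unadjusted limma p under 0.05, an adjusted p (Benjamini-Hochberg over all probes) under 0.15 and a fold change over 1.5. The comparisons of HS with CL and with TR share the HS arrays and are given side by side. In whole tissue, fewer cells of a type and less RNA per cell cannot be told apart.

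None of the 5 genes was called in any comparison, a share that 12 probes cannot set apart from that of the whole array. With HS against CL, 0 of the 12 probes were DE, where 3.58% of all tested probes were. With HS against TR, 0 of 12 were DE beside 1.84% of all, and with TR against CL 0 of 12 beside 0.0945%. At an unadjusted p under 0.05, limma gave 3, 3 and 0 of the 12 probes in those comparisons, beside 20.7%, 16.4% and 7.79% of all probes, and the methods' t-test gave 1, 3 and 0, beside 17%, 15.8% and 8.03%. With arrays scaled to the 75th percentile in place of quantile normalization, limma gave 6, 6 and 0 of the 12, beside 20.4%, 15.8% and 9.11% of all probes, and 0 were DE. With quantile normalization, the 12 probes had a median log2 change of -0.0053 against CL and of -0.16 against TR in HS birds, and of -0.027 in TR birds against CL, beside -0.039, -0.039 and -0.0060 over all probes. The 95% intervals of 9, 8 and 8 of the 12 probes lay within 1.5-fold either way. Arrays of the groups compared did not overlap for 1, 1 and 0 of the 12 probes, beside 11.9%, 11.3% and 5.3% of all probes. The probe in HS against CL was FABP7 A_87_P008868, which had 3 values in each of these groups once outlier-marked spots were left out.

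**Figure D1:**
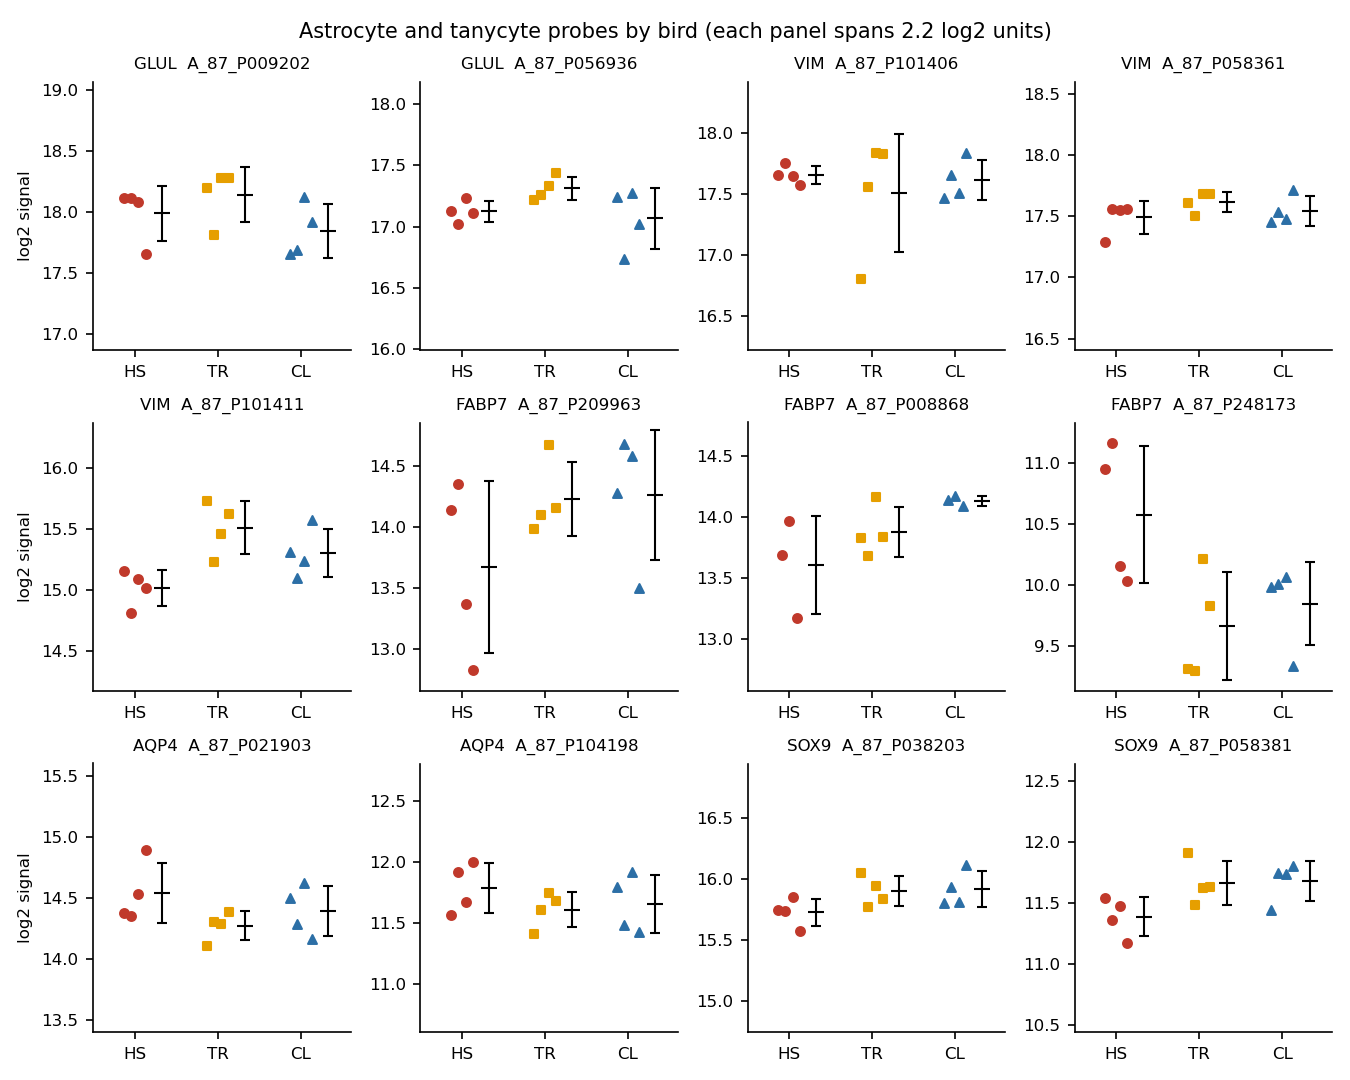
Log2 signal of the 12 glial probes (y axis) in the HS, TR and CL birds (x axis), 1 point per bird, with the group mean and SD in black. FABP7 had the widest spread, and the 4 HS values of VIM A_87_P101411 lay below the 4 TR values.

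**Figure D2:**
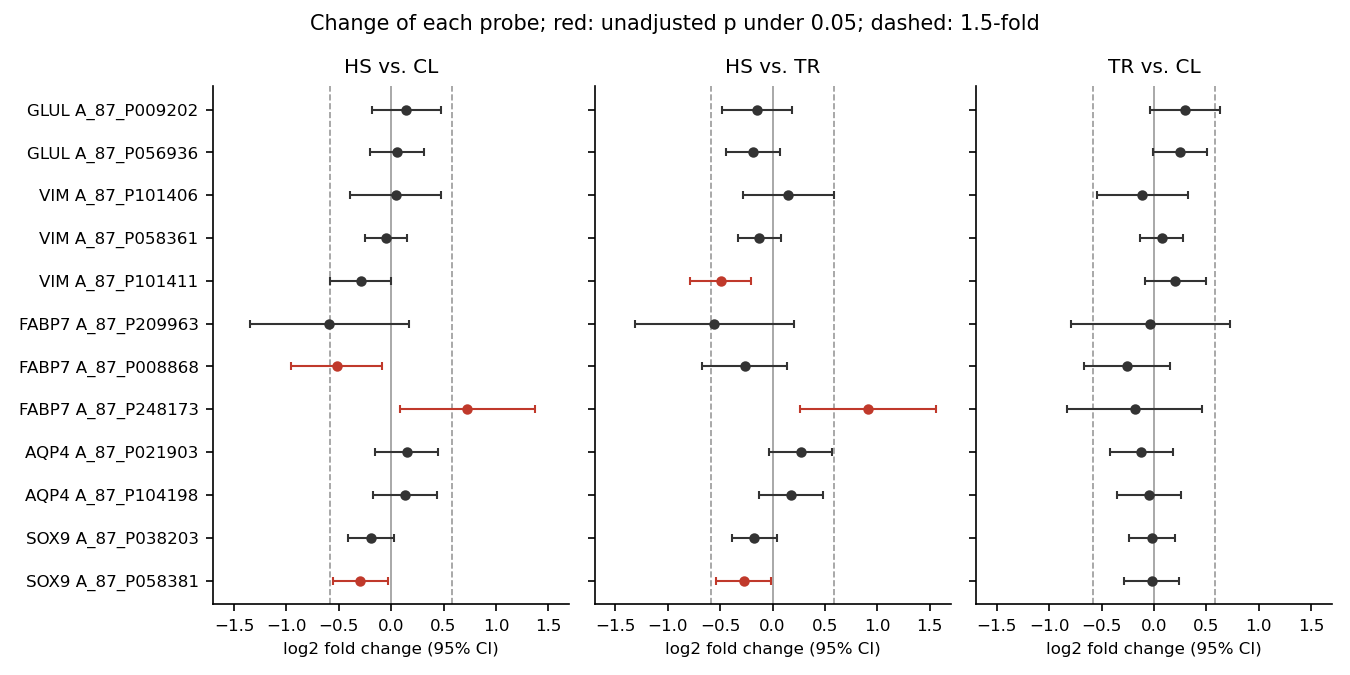
Log2 fold change of each probe with its 95% interval in HS against CL, HS against TR and TR against CL, with red for an unadjusted p under 0.05 and dashed lines at 1.5-fold. No probe was DE, and FABP7 A_87_P248173 was the only one of the 12 whose change lay above the upper dashed line. Another probe of the gene, A_87_P209963, lay just past the lower dashed line in HS against CL (-0.589).

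GLUL, the gene of glutamine synthetase, was read by 2 probes. Both were read on all 12 arrays from the scan at low gain, which was scaled up for very bright spots. So were all 3 VIM probes and SOX9 A_87_P038203. Quantile normalization gives equal ranks equal values, so identical values of such bright probes are shared ranks and their small differences are steps of rank. Probe A_87_P009202 had 18.11, 18.11, 18.08 and 17.66 log2 units in HS birds, 18.19, 17.81, 18.28 and 18.28 in TR birds, and 17.66, 17.69, 18.12 and 17.92 in CL birds. The 3 groups overlapped, with 1 HS bird and 2 CL birds at the low end. Probe A_87_P056936 averaged 17.12 ± 0.086 in HS birds, 17.31 ± 0.096 in TR birds and 17.07 ± 0.25 in CL birds (SD, n = 4 each). Both probes had their highest group mean in TR. The log2 change in TR against CL was 0.30 ± 0.15 (SE) for A_87_P009202 and 0.25 ± 0.12 for A_87_P056936, with limma adjusted p of 0.67 and 0.651. In HS against TR it was -0.15 and -0.19 (adjusted p 0.662 and 0.451). The small changes of HS birds against CL, 0.14 and 0.058, had the opposite sign, -0.075 and -0.11, with arrays scaled to the 75th percentile, so no direction can be given there. The 2 probes followed each other only in part over the birds (Pearson r = 0.53, 12 arrays).

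VIM, which encodes vimentin, the filament of tanycytes and also of vessel and connective tissue cells, was read by 3 probes. Probe A_87_P101411 had 15.15, 14.81, 15.09 and 15.01 log2 units in HS birds, 15.73, 15.23, 15.46 and 15.62 in TR birds, and 15.31, 15.10, 15.24 and 15.57 in CL birds. Every HS bird lay below every TR bird, while HS and CL birds overlapped. The change in HS against TR was -0.49 ± 0.13 (1.41-fold, limma adjusted p 0.116), which passed the limits on p and adjusted p but not that on fold change. Without TR replicate 2, the lowest of its group, the change was -0.59 (adjusted p 0.109), which passed all 3 limits. In HS against CL the change was -0.29 ± 0.13 (adjusted p 0.244).

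The other 2 VIM probes did not show a difference of that size. A_87_P058361 averaged 17.49 ± 0.13 in HS birds, 17.62 ± 0.085 in TR birds and 17.54 ± 0.12 in CL birds (SD, n = 4 each), and its changes of -0.13 (HS against TR) and -0.053 (HS against CL) were within 1.5-fold over their whole 95% intervals. Over the 24 alternative ways of processing, these changes ranged from -0.25 to -0.058 and from -0.27 to 0.014. A_87_P101406 had 17.66, 17.75, 17.65 and 17.58 in HS birds, 16.81, 17.55, 17.83 and 17.83 in TR birds, and 17.47, 17.66, 17.51 and 17.83 in CL birds. TR replicate 1 was the lowest of the 12 birds on this probe, and was the highest TR bird on A_87_P101411. Taken against A_87_P101406 on the same array, A_87_P101411 was lower in every HS bird (-2.50, -2.94, -2.56 and -2.56) than in every TR bird (-1.08, -2.32, -2.37 and -2.21). That difference of -0.65 ± 0.25 was not called (adjusted p 0.209). It was -0.34 without TR replicate 1. Of all ratios of a probe to the brightest probe of its gene, 15.2% likewise did not overlap between HS and TR. The 3 VIM probes correlated weakly over the 12 arrays (r of -0.31, 0.17 and 0.49).

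FABP7, which carries fatty acids in radial glia, tanycytes and astrocytes, varied most among the birds of a group. The within-group SD was 0.54 for probe A_87_P209963 and 0.46 for A_87_P248173, above 91.5% and 87.8% of all tested probes, where the median over all probes was 0.21. Of the other probes of the 5 genes, none had a within-group SD over 0.30. For FABP7 A_87_P008868 the SD of 0.25 left out outlier-marked spots of HS replicate 4 and CL replicate 4, the lowest of their groups.

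A_87_P209963, the FABP7 probe with the highest mean signal, had 14.14, 14.35, 13.37 and 12.83 log2 units in HS birds, 13.98, 14.09, 14.67 and 14.16 in TR birds, and 14.28, 14.68, 14.58 and 13.50 in CL birds. HS replicates 3 and 4 and CL replicate 4 were the low birds, and the groups overlapped. The change was -0.59 ± 0.35 in HS against CL and -0.55 ± 0.35 in HS against TR (adjusted p 0.356 and 0.452), with 95% intervals of -1.35 to 0.17 and -1.31 to 0.20. Without HS replicate 4 the HS against CL change was -0.31.

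A_87_P008868 followed A_87_P209963 closely (r = 0.94, 10 arrays). It had 13.69, 13.97 and 13.18 in HS birds, 13.83, 13.68, 14.17 and 13.83 in TR birds, and 14.14, 14.17 and 14.09 in CL birds. The spots of HS replicate 4 and CL replicate 4 were marked as outliers by the scanner software and were left out of the fit. The 3 HS values left lay below the 3 CL values, and the change of -0.52 ± 0.19 had an adjusted p of 0.173. With those spots kept, at 12.18 in HS replicate 4 and 12.96 in CL replicate 4, the groups overlapped and the change was -0.58 with an adjusted p of 0.398. With those spots left out and HS replicate 2 left out too, the change was -0.70 (limma adjusted p 0.0886), past all 3 limits. That fit rested on the HS values 13.69 and 13.18 alone. The main fit gave -0.27 ± 0.18 in HS against TR (limma adjusted p 0.499).

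A_87_P248173, the remaining FABP7 probe, had changes of the opposite sign. It had 10.95, 11.16, 10.16 and 10.03 log2 units in HS birds, 9.31, 9.30, 10.21 and 9.83 in TR birds, and 9.98, 10.01, 10.06 and 9.34 in CL birds. HS replicates 1 and 2 were higher than every TR and CL bird, and HS replicates 3 and 4 were not. The change was 0.73 ± 0.29 in HS against CL (1.66-fold, adjusted p 0.193) and 0.91 ± 0.29 in HS against TR (1.88-fold, adjusted p 0.171), past the limits on p and fold change but not on adjusted p. The study itself lists FABP7 as differentially expressed with a fold change of 1.88, naming neither comparison nor probe. That figure equals the 1.88-fold of A_87_P248173 in HS against TR here, which missed only the limit on adjusted p. For genes given in both, the study's list and its pairwise microarray changes differ. The equal figures therefore do not identify a comparison or a probe. No FABP7 probe was called here.

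Within a group, A_87_P248173 and A_87_P209963 moved together from bird to bird (r = 0.92 after the group means were removed), although over all 12 arrays r was 0.22. The difference between groups was therefore read from their ratio on each array, an analysis added after the data were seen. The level of this ratio depends on how each probe binds, and only its differences between birds are read. Log2 of A_87_P248173 over A_87_P209963 was -3.19, -3.19, -3.21 and -2.79 in HS birds, -4.67, -4.80, -4.46 and -4.33 in TR birds, and -4.30, -4.67, -4.52 and -4.16 in CL birds. All 4 HS birds lay above all 8 others, including HS replicates 3 and 4, which were the lower HS birds on both probes. Ratios whose arrays did not overlap made up 11.5% of all ratios between HS and CL, 15.2% between HS and TR and 7.4% between TR and CL.

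Every named probe was set against the brightest probe of its gene in the same way, which gave 4772 ratios of 2668 genes, of which 4766 could be tested with HS. The FABP7 ratio was higher in HS by 1.32 ± 0.14 log2 units against CL (95% interval 1.01 to 1.63, limma adjusted p 0.00107) and by 1.47 ± 0.14 against TR (1.15 to 1.78, adjusted p 0.000702). Ratios past the limits for DE made up 1.49% of those between HS and CL and 1.01% of those between HS and TR. By p the FABP7 ratio ranked 5 of 4766 against CL and 3 of 4766 against TR. In TR birds it changed by -0.15 ± 0.14 against CL (adjusted p 0.715), where 0 ratios passed.

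The ratio of A_87_P008868 to A_87_P209963 had changes of 0.038 ± 0.13 in HS against CL, 0.0068 ± 0.12 in HS against TR and 0.031 ± 0.12 in TR against CL. The 3 FABP7 probes carry the same transcript accession. Of the 12 spots of A_87_P209963, 3 were read from the scan at low gain, 1 in each group, and 0 of the 12 spots of A_87_P248173 were. The 88 tested probes within 5 rows and columns of A_87_P248173 on the slide had a median change of -0.040 against CL and -0.031 against TR in HS birds. What the probes bind besides the annotated transcript was not tested.

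**Figure D3:**
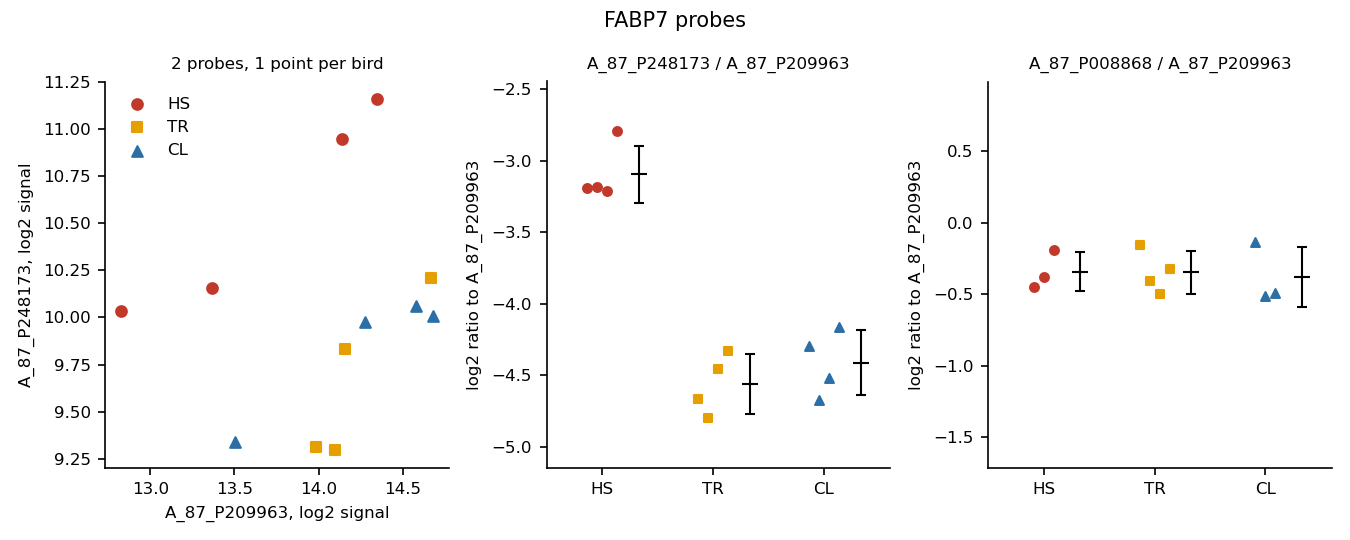
Left, log2 signal of FABP7 probe A_87_P248173 against A_87_P209963, 1 point per bird; middle and right, log2 ratio of A_87_P248173 and of A_87_P008868 to A_87_P209963 by group, with mean and SD in black. The 4 HS birds lay between -3.21 and -2.79 for A_87_P248173, above all TR and CL birds, while the ratio of A_87_P008868 overlapped in the 3 groups.

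AQP4 was read by 2 probes that followed each other (r = 0.81). A_87_P021903 had 14.38, 14.36, 14.53 and 14.89 log2 units in HS birds, 14.11, 14.31, 14.29 and 14.39 in TR birds, and 14.50, 14.29, 14.62 and 14.16 in CL birds. HS replicate 4 was the highest of the 12, and the groups overlapped. The change was 0.15 ± 0.14 in HS against CL and 0.27 ± 0.14 in HS against TR (adjusted p 0.577 and 0.357). Spots of A_87_P021903 were read from the scan at low gain on 4 HS, 4 TR and 2 CL arrays, and 0 spots of A_87_P104198 were. A_87_P104198 averaged 11.79 ± 0.20 in HS birds, 11.61 ± 0.15 in TR birds and 11.66 ± 0.24 in CL birds (SD, n = 4 each), with changes of 0.13 and 0.18 in HS against CL and HS against TR.

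SOX9 was read by 2 probes that also followed each other (r = 0.88). A_87_P058381 had 11.54, 11.36, 11.47 and 11.17 in HS birds, 11.91, 11.48, 11.62 and 11.63 in TR birds, and 11.44, 11.74, 11.73 and 11.81 in CL birds. The HS birds were at the low end and overlapped the others by 1 TR bird and 1 CL bird. The change was -0.29 ± 0.12 in HS against CL (limma adjusted p 0.196) and -0.27 ± 0.12 in HS against TR (adjusted p 0.287). A_87_P038203 averaged 15.72 ± 0.11 in HS birds, 15.90 ± 0.12 in TR birds and 15.92 ± 0.15 in CL birds (SD, n = 4 each), a change of -0.19 ± 0.10 in HS against CL. For both probes the 95% intervals in all 3 comparisons lay within 1.5-fold. In TR birds against CL the SOX9 changes were -0.018 and -0.021.

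Neuron markers differed between the same birds. Of 7 neuron markers with a probe, 3 were DE and higher in HS against CL and in HS against TR, beside 3.58% and 1.84% of all tested probes. They were NEFL and NEFM, which encode neurofilaments, and STMN2, a protein of growing neurites. The median log2 change of the 7 was 1.99 in HS against CL, 2.33 in HS against TR and -0.26 in TR against CL. Their summed signal ranged from 44447 to 171662 intensity units in HS birds, from 34652 to 52190 in TR birds and from 33303 to 58259 in CL birds. The median marker was at 11.76, 12.09, 13.52 and 14.17 log2 units in HS birds, 10.68, 11.31, 11.05 and 10.42 in TR birds, and 12.22, 10.28, 10.81 and 10.85 in CL birds. HS replicates 3 and 4 thus stood above all other birds, and CL replicate 1 above HS replicates 1 and 2. With each array left out in turn, the 3 genes changed by 1.71 to 3.69 in HS against CL and by 1.97 to 4.40 in HS against TR. None of the 3 was DE in either comparison without HS replicate 3 or HS replicate 4. In HS against CL none was DE without CL replicate 2 or CL replicate 3 either, nor STMN2 without CL replicate 4. In HS against TR calls were also lost without TR replicate 3 or TR replicate 4 (all 3 genes), TR replicate 1 (NEFL and STMN2), and TR replicate 2, CL replicate 3 or CL replicate 4 (STMN2).

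The 12 glial probes were set against this median over the 12 birds, as a family of 12 relations with permutation p-values adjusted over it. Birds were permuted across groups, so these p-values take in differences between groups as well as between birds of a group. SOX9 A_87_P058381 was lower where the neuron markers were higher (r = -0.83, adjusted permutation p = 0.0122; Spearman's rho = -0.87, adjusted permutation p = 0.00768). Without HS replicates 3 and 4, the birds farthest from the median, r was -0.80, and after the group means were removed it was -0.67. SOX9 A_87_P038203 had r = -0.65 and rho = -0.61 (adjusted permutation p 0.062 and 0.182). AQP4 A_87_P021903 ran the other way, at r = 0.73 and rho = 0.54 (adjusted permutation p 0.062 and 0.211), but r was 0.31 without those 2 birds. The other AQP4 probe, A_87_P104198, had r = 0.56 and rho = 0.50 (adjusted permutation p 0.126 and 0.211), and r was 0.48 without them.

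FABP7 A_87_P209963 had r = -0.71 and rho = -0.49 (adjusted permutation p 0.062 and 0.211), which rested on HS replicates 3 and 4, since r was -0.039 without them. FABP7 A_87_P248173 had r = 0.31 over the 12 birds and -0.53 after the group means were removed. VIM A_87_P101411 had r = -0.58 and FABP7 A_87_P008868 r = -0.62 (10 arrays). For the GLUL probes and the other VIM probes r lay between -0.34 and 0.052. For every probe but SOX9 A_87_P058381 the adjusted permutation p was above 0.05. The part of the neuron markers in the changes of the glial probes was not tested.

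**Figure D4:**
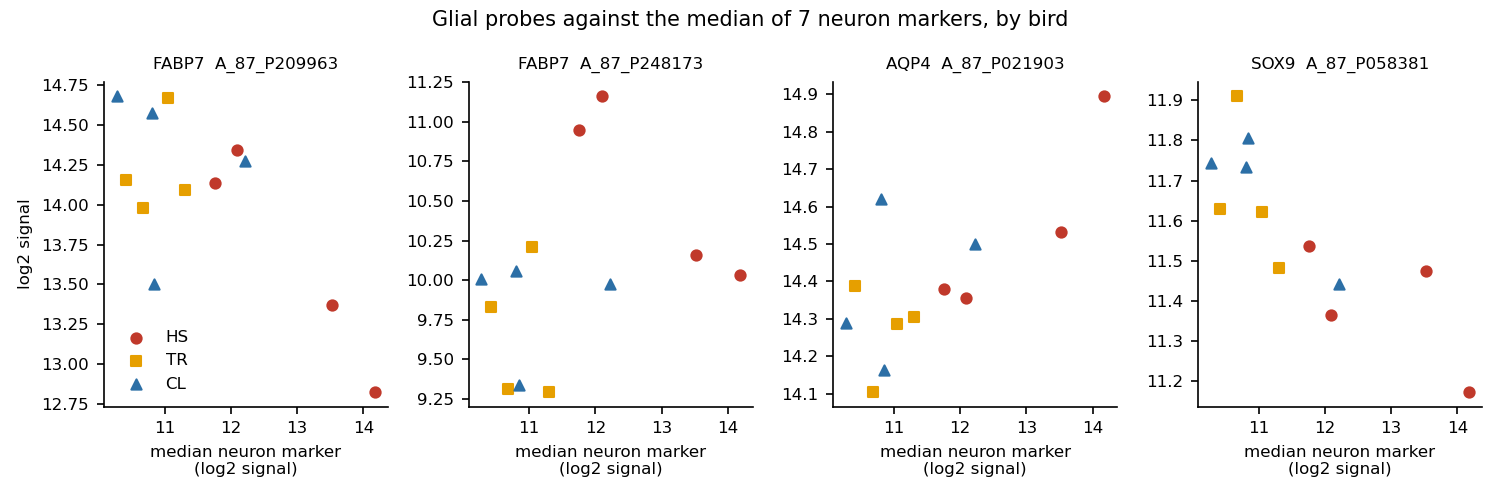
Log2 signal of 4 glial probes (y axis) against the median log2 signal of the 7 neuron markers (x axis), 1 point per bird. SOX9 A_87_P058381 was lower in birds with more neuron marker signal. Without the 2 HS birds on the right, r was -0.039 for FABP7 A_87_P209963 and 0.31 for AQP4 A_87_P021903.

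Among the 5 genes, by their brightest probes, 1 of 10 pairs stood out over the 12 birds. AQP4 and SOX9 ran opposite to each other (r = -0.81, adjusted permutation p = 0.0204 over the 10 pairs; rho = -0.66, adjusted permutation p = 0.241). The r was -0.57 without HS replicate 4 and TR replicate 1, the birds farthest from the median of AQP4, and -0.79 after the group means were removed. For the 9 other pairs r lay between -0.43 and 0.29.

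The genes most alike to each of the 5 over the 12 arrays, among 4264 named genes taken by their brightest probe, were INTS9 (r = 0.79), DEGS1 (0.76) and FUBP3 (0.76) for GLUL. For VIM A_87_P101406 they were DAB1 (0.94), PELO (0.89) and GSTM2 (0.89), and for FABP7 A_87_P209963 ST6GALNAC4 (0.92), PTPRC (0.92) and SAMSN1 (0.89). For AQP4 they were MAP6 (0.92), RAP1GAP3 (0.91) and GPR149 (0.91), and for SOX9 A_87_P038203 MLLT3 (0.89), CDC45 (0.89) and EGFR (0.88). These are the highest of 4264 values each, on arrays that share their scaling, and are given as a description.

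In the wider list of genes taken as astrocyte genes, the metallothioneins MT3 and MT4 were the ones called. Which cells made them was not tested. Of 22 other astrocyte genes tested, 2 were DE and higher in HS against CL, and 0 in HS against TR or TR against CL. Of all tested probes, 3.58%, 1.84% and 0.0945% were DE in those comparisons. These shares stand beside the counts of this and the later lists. The median log2 change of the 22 genes was 0.063 in HS birds against CL, 0.026 in HS birds against TR and -0.050 in TR birds against CL. MT4, a metal-binding metallothionein, had 15.31, 14.26, 15.50 and 15.34 log2 units in HS birds and 13.34, 14.24, 14.12 and 14.24 in CL birds. The groups did not overlap, as for 11.9% of all tested probes, and the change was 1.11 ± 0.31 (2.16-fold, limma adjusted p 0.0849). MT3, another metallothionein, rose by 0.74 ± 0.22 in HS against CL (1.67-fold, adjusted p 0.0931). In HS against TR the changes were 0.94 and 0.57 (adjusted p 0.178 and 0.225). With each array left out in turn, the HS against CL change was 0.90 to 1.39 for MT4 and 0.64 to 0.91 for MT3. Neither gene was DE without HS replicate 3 or HS replicate 4, nor MT3 without CL replicate 1 or CL replicate 4.

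GFAP, SLC1A3 and SLC1A2, the filament and the glutamate transporters of astrocytes, were not DE. GFAP changed by 0.33 in HS against CL, -0.13 in HS against TR and 0.46 in TR against CL (adjusted p 0.386, 0.802 and 0.638). Its values were 17.77, 17.83, 17.85 and 18.14 in TR birds and 17.72, 16.97, 17.65 and 17.43 in CL birds, without overlap, as for 5.3% of all tested probes. SLC1A3 changed by -0.18 and SLC1A2 by 0.51 in HS against CL. CLU, the secreted chaperone clusterin, was at 13.65 to 13.85 in HS birds, 14.13 to 14.36 in TR birds and 13.94 to 14.32 in CL birds. Its changes of -0.39 in HS against CL and -0.49 in HS against TR (adjusted p 0.0603 and 0.0490) missed the fold limit alone.

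Of 13 tanycyte and radial glia genes tested, 1 was DE and lower in HS against CL and 0 in the other comparisons, with a median of -0.070 in HS against CL. That gene was GPR50, of the melatonin receptor family, which fell by 0.87 ± 0.27 (adjusted p 0.115) at a dim level of 5.34 to 6.05 in HS birds and 5.82 to 7.23 in CL birds. With each array left out the change was -1.11 to -0.64. It was not DE with 75th percentile scaling (adjusted p 0.151) or without HS replicate 1, HS replicate 2, HS replicate 3, HS replicate 4, CL replicate 1, CL replicate 2 or CL replicate 3. DIO2, the tanycyte enzyme that activates thyroid hormone, changed by 0.0060 in HS against CL and -0.12 in HS against TR, and SOX2, a factor of neural progenitors, by -0.39 and -0.060 (adjusted p 0.206 and 0.888). DBI, also on this list and reported as DE by the study, could not be tested by its brightest probe. The spots of that probe on every TR and CL array were marked as outliers and left out.

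Of 7 genes of the glutamate and glutamine cycle, 1 was DE. GAD1, a gene of inhibitory neurons whose product makes the transmitter GABA from glutamate, had 9.33, 10.41, 12.56 and 14.13 in HS birds, 8.52, 8.02, 8.37 and 7.14 in TR birds, and 10.28, 6.38, 8.41 and 7.63 in CL birds. The change was 3.43 ± 1.01 in HS against CL and 3.59 ± 1.01 in HS against TR (adjusted p 0.0971 and 0.128), the order of the HS birds was that of the neuron markers, and without HS replicate 3 or HS replicate 4 it was not DE in either comparison. In HS against CL it was also not DE without CL replicate 2, CL replicate 3 or CL replicate 4, and in HS against TR without any TR replicate, CL replicate 3 or CL replicate 4. With each array left out the change was 2.59 to 4.19 and 2.75 to 4.35. GOT2, the mitochondrial aspartate aminotransferase, changed by -0.33 in HS against CL (adjusted p 0.0649), short of the fold limit.

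Of 8 intermediate filament genes, the neurofilaments NEFL and NEFM were DE and higher in HS (2.53 and 3.10 against CL, 3.03 and 3.81 against TR). The keratin KRT5 was DE and lower in HS against CL at a signal near background. It was tested through its CL arrays alone, with 2 of 4 HS, 3 of 4 TR and 4 of 4 CL arrays above background, so the filter favoured that direction and nothing is read from its call, which was absent with 75th percentile scaling. It was also lost without HS replicate 3, HS replicate 4, CL replicate 1, CL replicate 2 or CL replicate 3. The lamins LMNA, LMNB1 and LMNB2 changed by -0.11, -0.15 and -0.17 in HS against CL. Of 4 other genes of the fatty acid binding protein family, 0 were DE, with a median of 0.20 in HS against CL, where FABP4 changed by 0.50, CRABP1 by 0.44, FABP5 by -0.039 and FABP3 by -0.12. Of 6 genes taken as genes of astrocyte endfeet, 0 were DE, with a median of -0.31 in HS against CL. The 6 were AQP1, TRPV4, DAG1, DMD, AGRN and LAMB2. No potassium channel was among them, since KCNJ10 and KCNJ16 had no named probe. The largest value among the 6 was that of the water channel AQP1, -0.75 (limma adjusted p 0.161). Of 9 other SOX genes, 0 were DE, with a median of -0.23 in HS against CL. SOX8, which is made by glia, changed by -0.56 (adjusted p 0.0875), just under the fold limit.

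**Figure D5:**
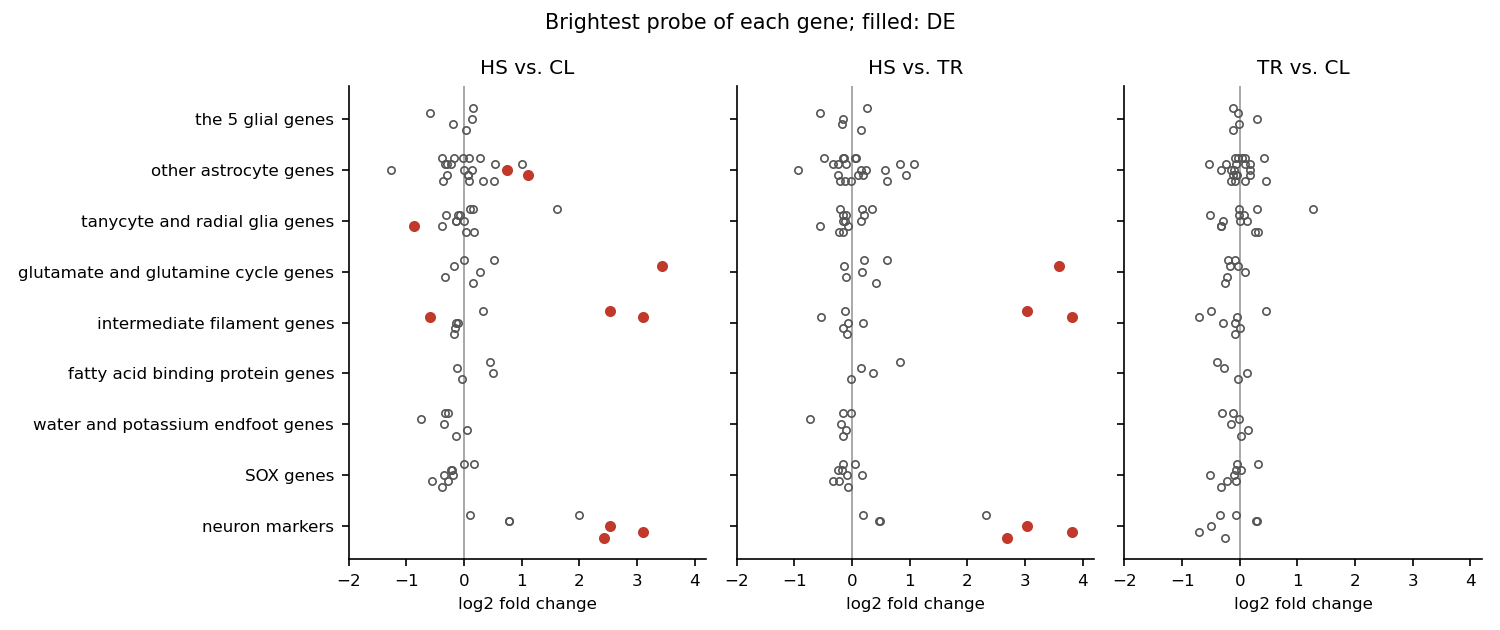
Log2 fold change of the brightest probe of each gene in the 5 glial genes, 7 related gene groups and the neuron markers (rows) in HS against CL, HS against TR and TR against CL, with filled red points for DE genes. Most points lay within 1 log2 unit of 0, and the neuron genes GAD1, NEFL, NEFM and STMN2 lay furthest to the right in both comparisons with HS.

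Markers of other cells that make some of the 5 genes were also read. Of 8 oligodendrocyte, 4 microglia and 8 meningeal and fibroblast markers tested, 0 were DE in any comparison. Of 9 endothelial and mural markers, MYH11, a smooth muscle myosin, was DE and higher in HS (1.27 against CL and 1.69 against TR, adjusted p 0.127 and 0.0956). With each array left out the changes were 1.05 to 1.73 and 1.50 to 1.96, and MYH11 was DE in 3 of 12 such fits in HS against CL and in 5 of 12 in HS against TR, in both only with HS replicates 2, 3 and 4 present. The 9 markers summed to 66035 to 88380 intensity units in HS birds, 70526 to 98459 in TR birds and 70512 to 85909 in CL birds.

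Of the choroid plexus and ependyma markers 3 were tested, TTR, OTX2 and AQP1, and 0 were DE. TTR and AQP1 changed by 0.93 and -0.75 in HS birds against CL (adjusted p 0.534 and 0.161). OTX2 was tested through its HS arrays alone, with 4 of 4 HS, 3 of 4 TR and 2 of 4 CL arrays above background, and no change is given for it. None of 4 pituitary and 9 lymphoid and erythroid markers was DE in any comparison. The lymphoid and erythroid markers summed to 30679 to 72877 intensity units in HS birds, 36242 to 70634 in TR birds and 24987 to 175519 in CL birds, with CL replicate 2 the highest. Of 8 striated muscle markers, MYH7, a slow myosin, was DE and lower in HS birds against CL (-0.85, adjusted p 0.0503), and it kept that call with each array left out. MYH7 was also lower in TR birds against CL (-0.82, not DE), and its change in HS against TR was -0.034. The muscle markers summed to 8940 to 64567 intensity units in HS birds, 8072 to 15526 in TR birds and 11983 to 190554 in CL birds, where HS replicate 2 and CL replicate 2 stood far above the other birds. With any 1 array left out, those included, the change of the FABP7 A_87_P248173 ratio was 1.22 to 1.40 against CL and 1.37 to 1.55 against TR, and it stayed DE. The part of these cells in the values of the 5 genes was not tested.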

How the data were processed

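Hypothalamus RNA of 12 birds was labelled with Cy3 and hybridized to a 44 K chicken array, 1 array per bird, and replicates are separate birds. The intensity of each spot was deposited as processed by Feature Extraction 10.7, background-subtracted and detrended per array and not scaled between arrays. Very bright spots were taken from a scan at low gain and scaled up. A second deposited table holds quantile-normalized log2 signals, whose 43606 entries were matched to spots by value (99.95% within 12 feature numbers, all 12 glial probes among them).

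Here log2 intensities of the 43803 non-control spots were quantile-normalized, 420 probe values of spots marked as outliers were left out, and spots of a probe were averaged. Probes were named through their RefSeq transcript accession, and 17961 probes with an Ensembl accession stayed unnamed. The test was limma 3.58.1 (R 4.3.3) over the 3 groups, with no covariate, tested on simulated data. The limits for DE were those of the study's methods. Captions in the study give an FDR under 0.05 instead, and its abstract names no FDR limit. Both are among the alternatives below. Of several probes for a gene the one brightest on average was used, whereas each of the 5 genes is described by all of its probes. Genes of the lists were named where DE, or as the best known members. Permutation tests of correlations were two-sided with 100000 resamples, and birds were permuted without regard to group. No p-value was computed for correlations after the group means were removed.

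The genes, the lists and the tests were chosen with earlier results of these data known. Ratios between probes, the relations with neuron markers and the repeats of the list counts were added after the data were seen. Alternatives were another scaling, normexp background correction, 2 other filters, other limits, outlier spots kept, a Student's t-test, 2 groups at a time, a replicate block, array weights, the deposited log2 table and each array left out. The number of arrays limits the precision.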

Additional observations from a re-analysis of the deposited data

Results flagged for a closer look

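In groups of 4 birds, a bird was looked at again where its gap to the nearest of the others was over 0.829 of the group's range. Of 53 groups of probe values and probe ratios, 10 held such a bird, where chance gives about 1 in 20. Among single probes these were HS replicate 4 for GLUL A_87_P009202 (17.66, the next at 18.08), HS replicate 1 for VIM A_87_P058361 (17.29, the next at 17.55) and CL replicate 4 for FABP7 A_87_P248173 (9.34, the next at 9.98), each the lowest of its group.

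Among log2 ratios to the brightest probe of the gene, HS replicate 4 was the highest of HS for FABP7 A_87_P248173 (-2.79, the next at -3.19). For AQP4 A_87_P104198, HS replicate 2 (-2.44) and TR replicate 3 (-2.54) were the highest of their groups, and for SOX9 A_87_P058381 HS replicate 1 was (-4.21). For VIM, TR replicate 1 was the highest of TR for A_87_P058361 (0.80) and for A_87_P101411 (-1.08), and HS replicate 2 was the lowest of HS for A_87_P101411 (-2.94). Both VIM ratios of TR replicate 1 share its low value of A_87_P101406.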

How the results depend on the processing

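The count of DE glial probes was 0 in TR against CL under all 24 alternatives. For HS against CL and for HS against TR it was 1 with no limit on adjusted p, in both through FABP7 A_87_P248173, and for HS against CL it was 1 with array weights, through FABP7 A_87_P008868. With single arrays left out it was 0 to 1 in HS against CL (1 without HS replicate 2) and 0 to 1 in HS against TR (1 without TR replicate 2). The probe called without HS replicate 2 was FABP7 A_87_P008868, for which only HS replicates 1 and 3 then had values. With 75th percentile scaling, 6 of the 12 probes had an unadjusted p under 0.05 in HS against CL, beside 20.4% of all probes, and 6 in HS against TR, beside 15.8%, and 0 were DE. The ratio of FABP7 A_87_P248173 to A_87_P209963 kept its call under the 23 alternatives that give it, at 1.22 to 1.40 in HS against CL and 1.37 to 1.55 in HS against TR.

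The cause of the following reversals, all of changes that were not called, was not tested. With 75th percentile scaling the HS against CL change was -0.075 for GLUL A_87_P009202, -0.11 for GLUL A_87_P056936 and -0.21 for VIM A_87_P101406, and the TR against CL change of VIM A_87_P058361 was -0.015. With normexp, VIM A_87_P101406 changed by -0.038 in HS against CL and FABP7 A_87_P209963 by 0.0059 in TR against CL. FABP7 A_87_P008868 changed by 0.040 in TR against CL with outlier spots kept and by 0.042 in the deposited log2 table. With array weights AQP4 A_87_P104198 changed by -0.00089 in HS against CL and SOX9 A_87_P038203 by 0.014 in TR against CL. With single arrays left out, changes in HS against CL ranged from -0.054 to 0.13 for GLUL A_87_P056936, from -0.0075 to 0.11 for VIM A_87_P101406 and from -0.084 to 0.014 for VIM A_87_P058361. VIM A_87_P101406 ranged from -0.081 to 0.26 in HS against TR and from -0.22 to 0.12 in TR against CL. In TR against CL, FABP7 A_87_P209963 ranged from -0.29 to 0.11, AQP4 A_87_P104198 from -0.12 to 0.041, SOX9 A_87_P038203 from -0.067 to 0.048 and SOX9 A_87_P058381 from -0.10 to 0.039.

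Over all probes, 1250 were DE in HS against CL, compared with 668 with normexp, 351 at an adjusted p under 0.05, 1836 with no such limit and 414 by a Student's t-test. In HS against TR it was 644, compared with 306, 157, 1429 and 254, and in TR against CL 33, compared with 19, 0, 482 and 1. With array weights HS against TR gave 1173 and TR against CL 53, with 75th percentile scaling TR against CL gave 57, and with only the groups compared in the fit TR against CL gave 10. With single arrays left out the counts were 493 (without HS replicate 3) to 1860 (without HS replicate 1) for HS against CL, 255 (without TR replicate 4) to 1186 (without HS replicate 1) for HS against TR, and 0 (without TR replicate 3) to 42 (without CL replicate 4) for TR against CL.

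Replicate numbers did not pair the birds, since the correlation of same-numbered arrays was over 0.1 in 3 of 12 pairs (-0.15 to 0.37) and 3 arrays were closest to their own number. With the replicate block, 0 glial probes were DE in each of the 3 comparisons, the DE probes in all numbered 1250, 523 and 20, and the VIM A_87_P101411 ratio in HS against TR (-0.65, adjusted p 0.116) passed the limits. Slide or scan day as a block could not be fitted, because each slide held 1 group.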
